A study of Homo sapiens with 3 samples.

Results

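The V0 sector genes of the vacuolar H+-ATPase (v-ATPase) were examined for binding of HA-PSF-TFE3, a fusion of SFPQ, also called PSF, with the transcription factor TFE3. The genes were ATP6V0A1, ATP6V0A2, ATP6V0B, ATP6V0C, ATP6V0D1, ATP6V0D2, ATP6V0E1 and the accessory subunit gene ATP6AP1. They were taken as 8 windows on hg19, each a gene with about 10 kb on either side, covering 439 kb in all. Binding was measured by ChIP-seq, in which DNA held by the tagged protein is pulled down and sequenced, in HK-2 cells, an established line from human proximal tubule. All libraries came from cells carrying a doxycycline-inducible HA-PSF-TFE3 construct and given 0.2 µg/ml doxycycline for 24 h. The group comprised 2 ChIP libraries, replicates 8 and 9, which the study describes as separate clones, and an input DNA library was the authors' control for peak calling. The fusion was therefore expressed from an introduced construct, and cells without doxycycline were not analysed here. The sample labels name PSF-TFE3, while the design text of the series names PRCC-TFE3. The study, like the labels, describes the profiled fusion as SFPQ-TFE3. Which fusion was present was not tested here, and the lists hold no expression with which to check the cell line.

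Each library gave a list of peak summits, single bases of highest enrichment, with a score equal to −log10 of the authors' q-value. The windows held 22 of the 44983 summits of replicate 8 and 11 of the 28084 summits of replicate 9. Scores are not normalised between libraries, so a summit's percentile among all summits of its own library is given beside its score. Sequencing depth cannot be read from these lists and was not used here. A gene without a summit is a gene where nothing passed the authors' threshold.

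The v-ATPase is the proton pump that acidifies lysosomes and endosomes. Its V1 sector hydrolyses ATP on the cytosolic face, and its V0 sector carries protons through the membrane. V0 is built from a ring of proteolipid subunits (c, encoded by ATP6V0C, and c″, encoded by ATP6V0B), the a subunits that form the proton path beside the ring, the d subunits that join the ring to the central stalk, and small subunits such as e. TFE3 and its relatives TFEB and MITF bind E-boxes, of which CACGTG is the best known form, and promoters of many lysosomal genes carry such sequences. The v-ATPase also takes part in activating mTORC1 at the lysosome. The study reported raised expression of v-ATPase subunits, by RT-PCR and immunoblotting, in HK-2 cells induced to make this fusion. Expression was not analysed here.

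Promoters of 6 of the 8 genes, 7 promoters in all, were found in the RefSeq promoter table on GRCh38.p14, each with 250 bases before and 50 after a transcription start. ATP6V0D2 and ATP6V0E1 had no entry. The motif CACGTG, which reads alike on both strands, lay in the promoters of ATP6V0B and ATP6V0D1, compared with 7.26% of the 35116 promoters in the table. ATP6V0B had 2 copies, beginning 57 and 39 bases before the start, and ATP6V0D1 had 1, beginning 59 bases before it. The longer form TCACGTGA, which contains CACGTG, was found in ATP6V0D1 alone among the 6 genes and in 0.98% of all promoters. The form CACATG, searched on both strands, was found in 1 of the 2 ATP6V0C promoters, beginning 28 bases before the start, and in 11.1% of all promoters. TGACTCA, the AP-1 motif, was found on neither strand in the 7 promoters and in 4.95% of all promoters. None of these motifs was found in the promoters of ATP6V0A1, ATP6V0A2 and ATP6AP1. The sequences below are those of ATP6V0D1 and ATP6V0B, which had CACGTG and a summit near the gene start, of ATP6AP1, which had such a summit and no E-box of these forms, and of ATP6V0C, which had an E-box and no summit. E-boxes of the forms CACGTG and CACATG are in capitals, and CATGTG is CACATG on the opposite strand. Other E-box forms were not searched for or marked. The first 3 run from 250 bases to 1 base before the start, and that of ATP6V0C is a stretch of 30 bases. Their positions on GRCh38.p14 are chr16:67481158-67481407 on the minus strand for ATP6V0D1, and on the plus strand chr1:43974710-43974959 for ATP6V0B, chrX:154428427-154428676 for ATP6AP1 and chr16:2513912-2513941 for ATP6V0C. Because the lists are on another build, whether a summit falls inside these bases was not determined.
ATP6V0D1: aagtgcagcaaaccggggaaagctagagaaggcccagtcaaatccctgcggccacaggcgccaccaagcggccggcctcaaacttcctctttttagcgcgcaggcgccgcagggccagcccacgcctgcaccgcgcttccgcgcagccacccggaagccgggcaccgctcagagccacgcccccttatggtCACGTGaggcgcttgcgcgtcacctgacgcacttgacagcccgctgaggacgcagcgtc
ATP6V0B: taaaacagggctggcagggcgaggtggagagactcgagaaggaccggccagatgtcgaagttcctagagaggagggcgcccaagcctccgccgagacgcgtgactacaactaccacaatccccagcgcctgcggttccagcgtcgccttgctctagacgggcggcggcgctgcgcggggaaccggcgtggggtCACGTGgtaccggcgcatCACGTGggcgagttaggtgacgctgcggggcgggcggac
ATP6AP1: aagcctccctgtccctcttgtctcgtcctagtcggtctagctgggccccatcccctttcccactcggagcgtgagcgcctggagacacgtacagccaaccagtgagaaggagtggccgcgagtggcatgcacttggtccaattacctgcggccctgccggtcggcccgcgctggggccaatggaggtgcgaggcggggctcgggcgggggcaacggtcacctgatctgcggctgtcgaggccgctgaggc
ATP6V0C: cggggcccaggtCATGTGacgcggccgcgg

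Fusion summits were found in 7 of the 8 windows in replicate 8 and in 6 in replicate 9, and most of these genes had a summit at the gene start. Of stretches as wide as each window, 56 to 80% had no summit in replicate 8 and 64.4 to 85.5% had none in replicate 9. ATP6V0D1, ATP6V0D2, ATP6V0E1, ATP6V0B and ATP6AP1 each had a summit of both libraries within 1 kb of the gene start, and ATP6V0A1 had one in replicate 8 only. ATP6V0A2 had 1 summit, deep in the gene, and ATP6V0C had none in either library. Gene starts were taken as the points 10 kb inside the windows, so distances are good to about 1 kb. These zones of 1 kb on either side of the start make up 16 kb of the 439 kb and held 6 of the 22 summits of replicate 8 and 5 of the 11 of replicate 9. Along all chromosomes, 1.52% of consecutive stretches of 2 kb held a summit of each library. Those stretches include sequence without genes, and other gene starts could not be placed without an hg19 annotation, so the share is no measure of what V0 genes have beyond other promoters. The count depends on weak summits, since with a minimum score of 5 only ATP6V0D1, ATP6V0D2 and ATP6V0E1 of the 5 genes remained.

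**Figure D1:**
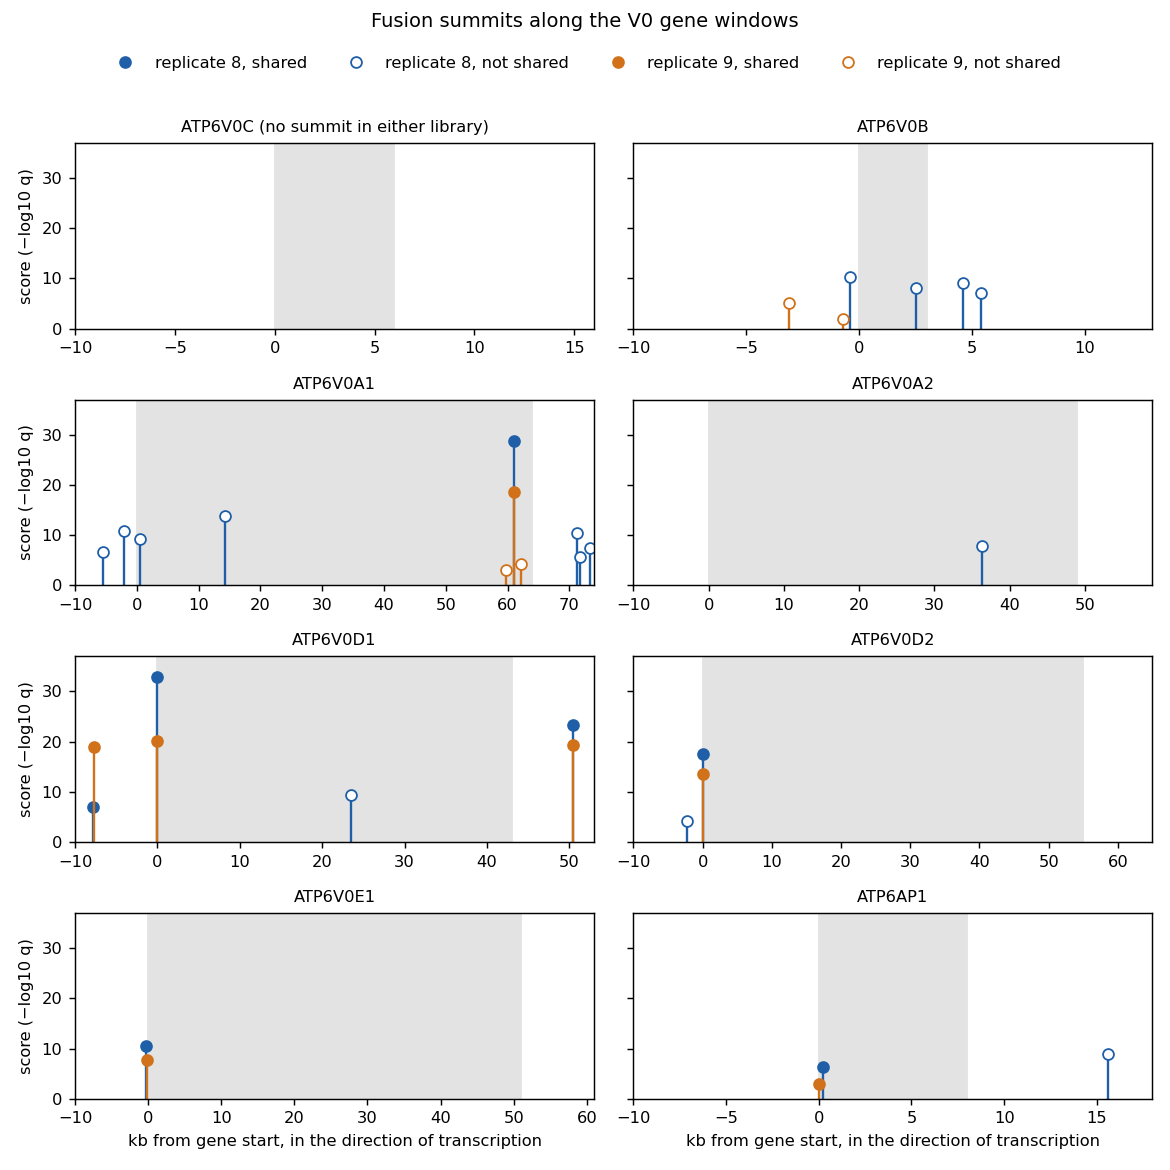
Summits of replicate 8 (blue) and replicate 9 (orange) along each of the 8 windows, with distance from the gene start in kb in the direction of transcription on the horizontal axis and the score (−log10 q) on the vertical axis. Grey marks the gene as the window places it, and filled points are summits with one of the other library within 200 bp. Shared summits stand at the start of ATP6V0D1, ATP6V0D2, ATP6V0E1 and ATP6AP1, while the ATP6V0A1 pair stands 61 kb downstream of its start and the ATP6V0C window is empty.

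A summit was counted as shared when the other list had a summit within 200 bp. This held for 7 summits in each library, in 5 genes: 3 pairs in the ATP6V0D1 window and 1 each in those of ATP6V0A1, ATP6V0D2, ATP6V0E1 and ATP6AP1. The share was 31.8% of the replicate 8 summits (95% Wilson interval 16.4 to 52.7%), compared with 47.9% in its whole list. In replicate 9 it was 63.6% (95% Wilson interval 35.4 to 84.8%), compared with 76.6% in the whole list. Both whole-list shares lie inside the intervals, so recurrence in the V0 windows was not distinguishable from that of the lists at these counts. The intervals cover counting error only, as summits of one gene are not independent. With 50 bp in place of 200 bp, 1 pair was left, in the ATP6V0D1 window, and with 500 bp ATP6V0B joined the other 5 genes.

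ATP6V0C encodes subunit c, the proteolipid that forms most of the membrane ring and the target of bafilomycin. Its window, 2554 to 2580 kb on chromosome 16, held 0 summits in replicate 8 and 0 in replicate 9. The nearest outside it were in replicate 8, at 2553217 and 2581711, which lie 0.784 and 1.71 kb beyond the window's edges and both score 6.24. In replicate 9 the nearest were 16.7 kb beyond the upstream edge, with a score of 5.22, and 38.8 kb beyond the downstream edge, with a score of 10.5. Of all stretches of 26 kb along the genome, 77.3% likewise had no summit in either library, and 13.7% had a shared one. An empty window of this width was therefore the common case. Absence from both lists does not show that the fusion was not bound there. AMDHD2, an enzyme of amino sugar metabolism, starts 6.6 kb downstream of the ATP6V0C start in the GRCh38 annotation.

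ATP6V0B encodes c″, the related proteolipid of the ring. Its window on chromosome 1, from 44431 to 44454 kb, held 4 summits in replicate 8 and 2 in replicate 9. Only 1.45% and 4.34% of stretches of 23 kb held as many. The replicate 8 summits were of middle rank and those of replicate 9 weak. At the gene start, the replicate 8 summit at 44440636 scored 10.2, the 59.4th percentile of its list. The replicate 9 summit at 44440283 scored 1.92, the 0.548th percentile, close to the lowest score of its list, 1.33. These lay 353 bp apart and were thus not shared at 200 bp, whereas 12.5% of stretches of this width held a shared summit. The other replicate 8 summits, at 44443476, 44445628 and 44446374, scored 8.13, 9 and 7.02 and lay 2.5 to 5.4 kb downstream of the start, the last 2 past the end of this short gene. The best replicate 9 summit, at 44437875, scored 5.06 and lay 3.1 kb upstream. The flanks hold the starts of DPH2, a gene of diphthamide synthesis, and of the galactosyltransferase gene B4GALT2, which lie 5 kb upstream and 4.2 kb downstream of ATP6V0B in the GRCh38 annotation. How the 2 CACGTG copies of the ATP6V0B promoter relate to these summits was not tested.

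ATP6V0A1 and ATP6V0A2 encode forms of subunit a, which holds the proton path and steers the pump to different membranes. The ATP6V0A1 window on chromosome 17, from 40601 to 40685 kb, held 8 summits in replicate 8, the most of the 8 windows, and 3 in replicate 9, as many as that of ATP6V0D1. Of stretches of 84 kb, 2.32% held as many in replicate 8 and 9.82% in replicate 9, and 31.8% held a shared summit. Its strongest summit was shared and lay near the 3′ end, 61 kb into a gene of about 64 kb. It scored 28.8 at 40672015 in replicate 8 and 18.5 at 40672149 in replicate 9, the 91.9th and 70.2nd percentiles, with 134 bp between them. Replicate 9 had 2 weak neighbours of it, at 40670717 and 40673096, with scores of 2.98 and 4.23, and these had no partner in replicate 8. At the gene start replicate 8 had a summit at 40611546 with a score of 9.18, and the first of replicate 9 lay 59.7 kb downstream of the start. The other replicate 8 summits included its best unshared one, at 40625207, 14.2 kb into the gene, with a score of 13.9, and one 2.1 kb upstream of the start with a score of 10.8. A group of 3 lay 71.2 to 73.3 kb from the start, with scores of 5.59 to 10.4. Beyond the window's end, 77.1 kb from the start, replicate 9 had a summit at 40688091 with a score of 37.2, while the nearest in replicate 8 outside that edge scored 4.15.

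The ATP6V0A2 window on chromosome 12, from 124187 to 124256 kb, held 1 summit in replicate 8 and 0 in replicate 9. That summit, at 124233412, scored 7.84, the 48.5th percentile, and lay 36.4 kb into the gene. No replicate 9 summit lay within 229 kb of it. The flanks were sparse as well, and the nearest summits outside the window were 100 kb away in replicate 8 and 183 kb away in replicate 9. A shared summit was present in 28.1% of stretches of 69 kb and none of either library in 58.6%. The paralogues thus differed, with 8 and 3 summits at ATP6V0A1 against 1 and 0 at ATP6V0A2, in windows of 84 and 69 kb. With 2 libraries this difference has no test.

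ATP6V0D1 and ATP6V0D2 encode the d subunits that couple the ring to the rotating stalk. ATP6V0D1 is expressed in most tissues, whereas ATP6V0D2 is known from kidney and osteoclasts. The ATP6V0D1 window on chromosome 16, from 67462 to 67525 kb, held 4 summits in replicate 8 and 3 in replicate 9, and all 3 of replicate 9 were shared. A shared summit was found in 26.5% of stretches of 63 kb. The pair at the gene start was the strongest of the V0 genes in either library. It scored 32.9 at 67514988 in replicate 8 and 20.1 at 67515073 in replicate 9, 85 bp apart, at the 94.4th and 72.9th percentiles. The ATP6V0D1 promoter carried TCACGTGA, but whether either summit falls on that motif was not determined. A further pair, 9 bp apart, lay 50.4 kb downstream of the start in the 3′ flank, at 67464579 with a score of 23.4 and at 67464570 with a score of 19.3. HSD11B2, the enzyme that inactivates cortisol in mineralocorticoid target cells of the kidney, starts 51.4 kb downstream of ATP6V0D1 in the GRCh38 annotation. The remaining pair lay 7.8 kb upstream, at 67522754 with a score of 6.98 in replicate 8 and at 67522697 with a score of 19.0 in replicate 9, and was the only one of the 7 that scored higher in replicate 9. AGRP, which encodes an appetite neuropeptide, starts 2.4 kb upstream of ATP6V0D1 in the same annotation. The unshared summit, of replicate 8, lay 23.5 kb into the gene at 67491495 and scored 9.37. The flanking summits were not assigned to genes.

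ATP6V0D2, on chromosome 8 from 87101 to 87176 kb, had 2 summits in replicate 8 and 1 in replicate 9. The shared pair lay at the gene start, with a score of 17.6 at 87111129 in replicate 8 and 13.6 at 87110955 in replicate 9, the 78.8th and 60.2nd percentiles. These were 174 bp apart, the widest of the 7 pairs. The other replicate 8 summit, at 87108821, 2.2 kb upstream, scored 4.10 and was not shared. A shared summit was present in 29.7% of stretches of 75 kb. Both d subunit genes therefore had a shared summit at the start, with higher scores at ATP6V0D1 in each library.

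ATP6V0E1 encodes the small subunit e. Its window on chromosome 5, from 172401 to 172472 kb, held exactly 1 summit in each library, both at the gene start and 56 bp apart. The replicate 8 summit at 172410733 scored 10.5, the 60.1th percentile, and the replicate 9 summit at 172410789 scored 7.68, the 37.6th. A shared summit was present in 28.6% of stretches of 71 kb. Nothing else passed the threshold over the 51 kb of the gene.

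ATP6AP1 encodes Ac45, an accessory subunit that takes part in assembly and sorting of the pump. Its window on chromosome X, from 153647 to 153675 kb, held 2 summits in replicate 8 and 1 in replicate 9. The shared pair lay at the gene start, with a score of 6.24 at 153657179 in replicate 8 and 2.89 at 153657014 in replicate 9, 165 bp apart. With percentiles of 38.5 and 3.58 it was the weakest of the 7 pairs in both libraries. A shared summit was present in 14.6% of stretches of 28 kb. The other replicate 8 summit was stronger, scored 8.93 at 153672594, 15.6 kb downstream of the start, and had no partner. FAM50A starts 15.5 kb downstream of ATP6AP1 in the GRCh38 annotation.

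Ordered by the best summit in the window, the genes ran ATP6V0D1, ATP6V0A1, ATP6V0D2, ATP6V0E1, ATP6V0B and ATP6AP1, and the order was the same in both libraries. The mean percentile was 83.6 ± 15.1 for ATP6V0D1, 81.1 ± 15.4 for ATP6V0A1 and 69.5 ± 13.2 for ATP6V0D2 (SD, n = 2). It was 48.9 ± 15.9 for ATP6V0E1, 39.1 ± 28.8 for ATP6V0B and 28.6 ± 35.4 for ATP6AP1. For each of the 6 genes the replicate 9 percentile was the lower, and the SDs include this offset between the libraries. The SDs are therefore no measure of the differences between genes, which can be compared only within each library. The mean joins different summits for ATP6V0B, whose best were the start summit in replicate 8 and that 3.1 kb upstream in replicate 9, and for ATP6AP1, whose best were 15.6 kb downstream in replicate 8 and at the start in replicate 9. With a minimum score of 5 the ATP6V0B mean was 21.7, and with equal numbers of summits in both lists the ATP6AP1 mean was 14.7. ATP6V0A2 reached the 48.5th percentile in replicate 8, below the other 6 genes. By start summits alone, ATP6V0B stood above ATP6AP1 in replicate 8 (59.4 and 38.5) and below it in replicate 9 (0.548 and 3.58). ATP6V0D1, ATP6V0D2 and ATP6V0E1 kept their order.

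**Figure D2:**
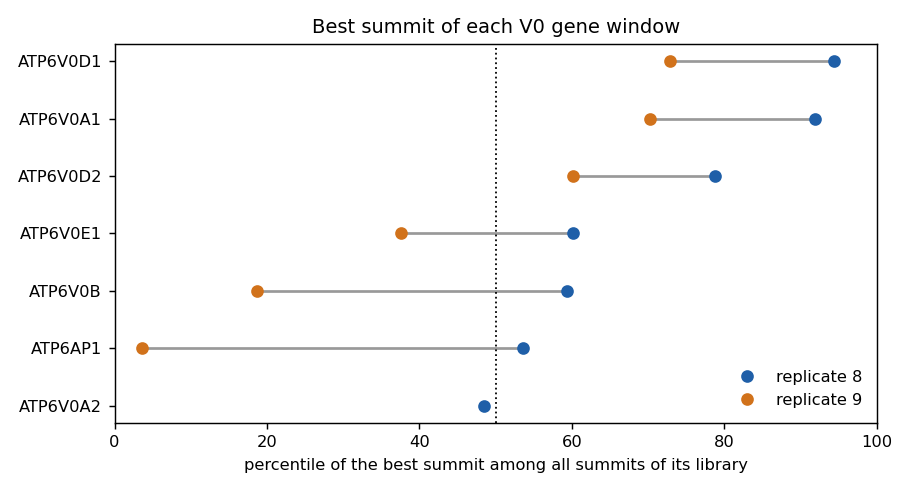
Percentile of the best summit in each window among all summits of the same library, for replicate 8 (blue) and replicate 9 (orange), with genes in order of their mean and the dotted line at the middle of each list. ATP6V0D1, ATP6V0A1 and ATP6V0D2 stood above the line in both libraries, and ATP6V0A2 had no replicate 9 summit.

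The V0 summits spread over the ranks of both lists, with a median percentile of 54.5 in replicate 8 and 37.6 in replicate 9. The best ranked 2535th in replicate 8 and 7598th in replicate 9, both at the ATP6V0D1 start. In replicate 8, 2 of the 22 summits were in the top 10% of the list, those at the start of ATP6V0D1 and near the 3′ end of ATP6V0A1, and in replicate 9 there were 0 of 11. The median score was 9.09 in replicate 8, compared with 8.20 in its list, and 7.68 in replicate 9, compared with 10.5. Shared summits had median scores of 17.6 and 18.5, while unshared ones had 8.93 and 3.61. Of the 7 pairs, 6 scored lower in replicate 9, as did 53.5% of all 21518 pairs of the lists. The median percentile difference, replicate 9 minus replicate 8, was -21.4 for the 7 pairs and -10.5 for all pairs, with 90% of all pairs between -51.4 and 18.6. All but the upstream ATP6V0D1 pair, with a difference of 27.9, were inside that range.

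**Figure D3:**
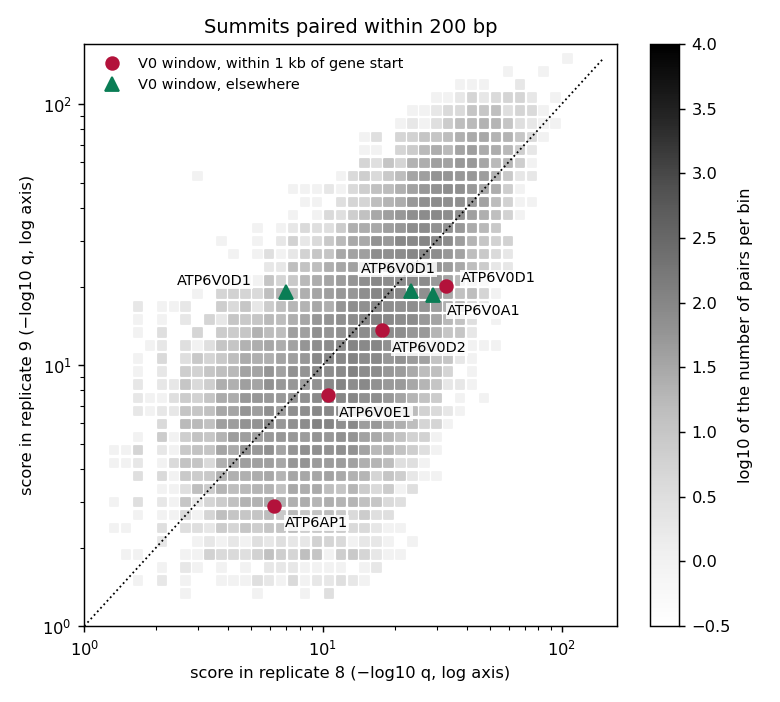
Scores of summits paired within 200 bp, with replicate 8 on the horizontal and replicate 9 on the vertical axis, both logarithmic. Grey squares are all 21518 pairs of the lists, shaded by number, red points are V0 pairs within 1 kb of a gene start and green triangles the other V0 pairs. The V0 pairs lie within the cloud, and 6 of 7 lie under the dotted line of equal scores.

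Summits were denser in the V0 windows than along the genome. There were 5.01 per 100 kb in replicate 8 and 2.51 in replicate 9, compared with 1.47 and 0.922 over the chromosomes, or 3.41 and 2.72 times as many. The mean was 16.5 ± 7.78 summits per library (SD, n = 2), and the ratio of replicate 8 to replicate 9 was 2, compared with 1.60 for the lists. In replicate 8 the density was 17.4 per 100 kb at ATP6V0B, 9.52 at ATP6V0A1, 7.14 at ATP6AP1 and 6.35 at ATP6V0D1. It was 2.67 at ATP6V0D2, 1.45 at ATP6V0A2 and 1.41 at ATP6V0E1, close to the 1.47 of the chromosomes for the last 2. In replicate 9 it was 8.7 at ATP6V0B, 4.76 at ATP6V0D1, 3.57 at ATP6V0A1 and at ATP6AP1, 1.41 at ATP6V0E1, 1.33 at ATP6V0D2 and 0 at ATP6V0A2. ATP6V0B was thus the densest window in both libraries, while the order behind it differed. That window is 23 kb wide for a gene of 3 kb, so most of it is flank. The starts of DPH2 and B4GALT2 lie in it in the GRCh38 annotation, and its 2 replicate 9 summits scored only 5.06 and 1.92. Windows around genes hold promoters and transcribed sequence, while the chromosomes also hold long parts without genes, and what this contributes was not tested. With only the genes themselves, 279 of the 439 kb, the mean was 6.5 summits per library, and the mean density was 2.33 per 100 kb, compared with 3.76 in the whole windows.

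**Figure D4:**
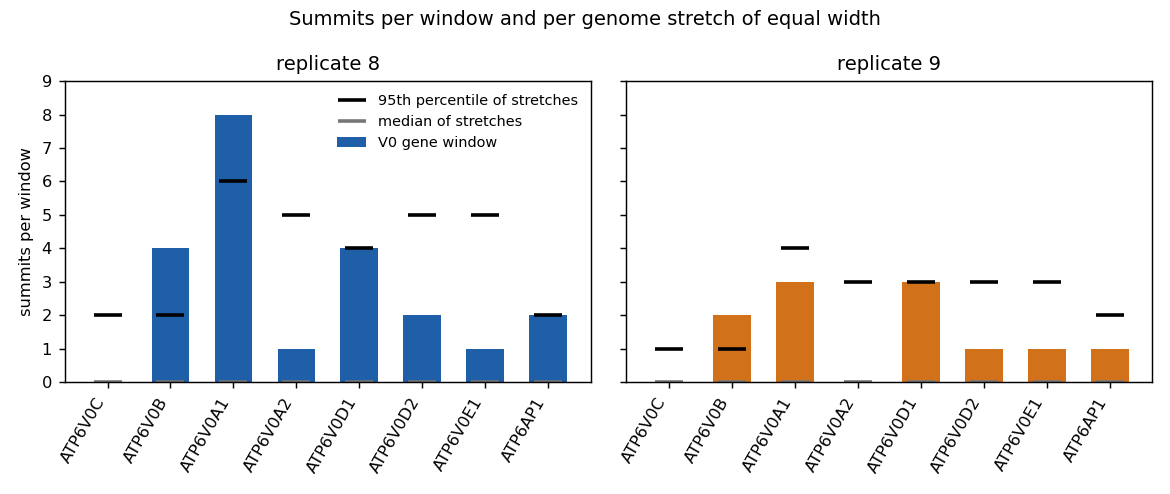
Number of summits in each window (bars) for replicate 8 (left) and replicate 9 (right). Black lines give the 95th percentile, and grey lines the median, which was 0 throughout, of the counts in consecutive genome stretches as wide as that window. ATP6V0B, whose window of 23 kb is mostly flank, exceeded the black line in both libraries and ATP6V0A1 in replicate 8.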

How the data were processed

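HA-PSF-TFE3 ChIP-seq peak summits of 2 libraries were analysed, grouped by their titles. Per the labels and the study's methods, the authors pulled down chromatin with an anti-HA matrix and called peaks with MACS2 in each library against input DNA, without pooling. The deposited scores are −log10 q-values, each at a summit 1 bp wide. The cutoff is given in places as a q-value of 0.05, which is a score of 1.3, and elsewhere as a p-value. The study also describes a filter on fold enrichment, and whether the deposited lists had passed it was not determined. The build is given as hg19 in the labels and hg38 in part of the methods. The lists were read as hg19, because 364 and 262 summits lay past the ends of hg38 chromosomes. Coordinates were not converted, and positions count from 1.

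The genes, windows and lists were chosen with earlier results of these data known. Summits inside the windows were taken, all 8 genes were named, and in each the shared and the best unshared summits were given. Strands came from GENCODE v44. Gene lengths and neighbours came from RefSeq on GRCh38, where the 8 gene lengths were within 1 kb of those the windows imply. Background shares came from consecutive, non-overlapping stretches of the same width on every chromosome up to its last summit. No test between conditions was possible with 1 group. Matching was tested on replicate 9 positions with planted shifts, and merging on a made-up list. For counting, the counts per stretch were checked to sum to each real list. Other v-ATPase genes were not analysed here. Scripts ran in Python 3.11.15 with pandas 2.3.3 and numpy 2.4.6, intervals came from scipy 1.17.1, and plots from matplotlib 3.10.9. Score minimums, list length, window edges, merging, matching distance and leaving out a library were tried as alternatives.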

Additional observations from a re-analysis of the deposited data

How the results depend on the processing

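The alternatives for the gene start count, its zone of 0.5 or 2 kb included, were added after seeing the data, and those zones gave 4 and 5 genes. A minimum score of 5 left 3 genes with a start summit in both libraries and raised the replicate 9 share to 85.7%. A minimum score of 10 left 7 summits per library on average, 1.59 per 100 kb, 3 genes with a shared summit (ATP6V0A1, ATP6V0D1 and ATP6V0D2) and 2 with a start summit in both (ATP6V0D1 and ATP6V0D2). Without the outer 10 kb the mean was 6.5 summits and the start count 1, since that edge cuts through the starts. At 50 bp, 1 gene was left and the shares were 4.55% and 9.09%. Equal list lengths gave a mean of 15.5 summits and a median best percentile of 50. Leaving out the outer 5 kb gave 12 and 59.2, compared with 16.5 and 59.2 in the main setting. Both settings kept 5 genes with a shared summit and 5 with a start summit in both libraries. Merging changed neither the summit count nor these gene counts. Leaving out each replicate gave from 11 to 22 summits, from 2.51 to 5.01 per 100 kb, and a median best percentile from 48.9 to 69.5, and the cause was not tested. No paired comparison of conditions was possible because there was 1 group. Read depth was not used here, and summits found in 1 library were not weighed against it.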

Other observations

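Beyond the windows, several of the nearest summits stood in both lists at almost the same place. Downstream of ATP6V0D1, 76.1 kb from its start, replicate 8 had a summit at 67438885 with a score of 29.2 and replicate 9 one at 67438848 with a score of 48.4, the 92.3rd and 93.9th percentiles. In replicate 9 this exceeded every summit inside the 8 windows. At ATP6AP1, summits 6.82 and 6.73 kb outside the upstream edge, at 153640181 and 153640269, scored 9.88 in replicate 8 and 10.5 in replicate 9, both above the pair at the gene start. At ATP6V0D2, summits 3.75 and 3.79 kb past the downstream edge, at 87179755 and 87179790, scored 6.03 and 7.54, the 36.8th and 35.8th percentiles. These summits were chosen as the nearest outside each window and were not assigned to genes.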
